A study of Mus musculus with 104 samples.

Results

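The genes described here encode the proteins of the cytosolic ribosome in mouse muscle stem cells. They were chosen by name: a gene entered if its probe set carried a single symbol beginning with Rpl or Rps and a number, or Rplp0, Rplp1, Rplp2 or Rpsa, with S6 kinases (Rps6k) and pseudogenes left out. Of 17097 genes with a probe set of 1 symbol, 72 fitted, and each was read by its brightest probe set. A filter on low signal (a mean log2 value of at least 4.50) kept 11853 genes and 70 of the 72. Rpl39l, at a mean log2 signal of 4.31, and Rpl3l, at 4.06, fell below it and were not tested. The 70 comprised 24 proteins of the small subunit, 38 of the large subunit, the 3 stalk proteins and 5 relatives or similarly named genes (Rpl22l1, Rpl36al, Rpl7l1, Rps27l and Rps19bp1). Rps19bp1 encodes a binding partner of RPS19 and no ribosomal subunit. Other ribosomal protein genes, whose probe sets share their symbol with a second gene, were not analysed here.

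Microarrays measured RNA of satellite cells, the resident stem cells of skeletal muscle, from Per1-Venus BAC transgenic mice on a C57B6/J background. All groups, controls included, carry this reporter transgene. Adult and aged mice, 19 to 29 and 55 to 69 weeks old at the start, ate a control diet freely or a calorie-restricted (CR) diet at 30% below that intake for 25 weeks, after 3 weeks of stepwise reduction by 10% a week. Cells were collected at 6 times of day, at 0, 4, 8, 12, 16 and 20 h of the light schedule. The control diet gave 22 adult and 24 aged arrays, and CR gave 32 adult and 26 aged arrays, which make up the 4 arms. Each of the 24 groups of arm and time held 4 to 6 arrays, except adult control at 20 h, which held 1. The labels call the arrays biological replicates, and the design allots 4 mice to each time and diet, killed 1 per diet group a day. Groups of 5 or 6 arrays exceed those 4 mice, and whether some of their arrays share a mouse is not given, so p-values measure the spread between arrays. The labels disagree on 1 arm: every adult control array is tagged 83 to 97 weeks old, as both aged arms are, whereas adult CR arrays are tagged 47 to 57 weeks. The arms are named here by the titles. If the tag were right, diet and age could not be told apart in the adult comparison, aged against adult control would compare no ages, and the test of the diet difference between the ages would change its meaning.

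Every cytosolic ribosome joins a small subunit, which reads the messenger RNA, to a large subunit, which forms the peptide bond, and the stalk proteins recruit translation factors to the large subunit. The messenger RNAs of these proteins are among the most abundant of a cell and typically begin with a run of pyrimidines, the terminal oligopyrimidine (TOP) motif, through which nutrient signalling by mTOR controls their translation. Quiescent satellite cells keep protein synthesis low and raise it when they activate.

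The starts of these genes show what the members share in sequence. RefSeq promoter windows (GRCm38.p6; 250 bases before the start and 50 from it) were matched for 58 of the 72 genes. The stretches below run from 150 bases before the annotated start to 20 bases from it, 5′ to 3′. They are shown for 4 genes that rose under CR (Rpl36a, Rps19, Rps18, Rpl22), for the stalk gene Rplp2, for the brightest member Rps6, and for Rpl7l1. By its brightest probe set, Rpl7l1 had a rhythm opposite to those of the other members called rhythmic. Capitals mark the letters of a searched motif. Rps19 and Rpl22 have several annotated starts, of which 1 holding CTTTCC is shown, and the stretch of another Rps19 start holds CACGTG.
Rpl36a, chrX:134585504-134585673, plus strand: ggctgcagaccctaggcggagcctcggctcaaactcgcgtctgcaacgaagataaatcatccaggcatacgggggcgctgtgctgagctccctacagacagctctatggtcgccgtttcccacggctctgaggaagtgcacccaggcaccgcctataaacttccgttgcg
Rps19, chr7:24884526-24884695, plus strand: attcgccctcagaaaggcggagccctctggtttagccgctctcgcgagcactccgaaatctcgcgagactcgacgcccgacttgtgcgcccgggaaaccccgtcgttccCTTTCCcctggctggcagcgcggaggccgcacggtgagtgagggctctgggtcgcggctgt
Rps18, chr17:33955646-33955815, minus strand: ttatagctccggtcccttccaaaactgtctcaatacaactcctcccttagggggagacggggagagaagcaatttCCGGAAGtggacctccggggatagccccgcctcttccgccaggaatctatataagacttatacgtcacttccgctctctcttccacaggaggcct
Rpl22, chr4:152325576-152325745, plus strand: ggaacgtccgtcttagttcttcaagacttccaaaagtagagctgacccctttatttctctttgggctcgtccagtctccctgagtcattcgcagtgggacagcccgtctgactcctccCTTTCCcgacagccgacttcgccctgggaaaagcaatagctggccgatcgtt
Rplp2, chr7:141447501-141447670, plus strand: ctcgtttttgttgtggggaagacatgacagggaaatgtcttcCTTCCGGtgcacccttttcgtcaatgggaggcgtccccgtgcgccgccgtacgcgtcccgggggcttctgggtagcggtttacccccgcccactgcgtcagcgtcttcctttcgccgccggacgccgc
Rps6, chr4:86857348-86857517, minus strand: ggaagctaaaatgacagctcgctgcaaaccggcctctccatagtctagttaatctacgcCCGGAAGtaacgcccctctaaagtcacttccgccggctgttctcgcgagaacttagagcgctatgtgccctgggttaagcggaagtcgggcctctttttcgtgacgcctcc
Rpl7l1, chr17:46782637-46782806, minus strand: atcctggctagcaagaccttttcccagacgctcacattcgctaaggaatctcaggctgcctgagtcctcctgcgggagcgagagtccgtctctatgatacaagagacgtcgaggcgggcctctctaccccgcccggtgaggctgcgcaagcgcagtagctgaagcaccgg
Both strands of the whole windows were searched. CCGGAAG, the core bound by ETS-family factors, stood in the windows of 25 of the 58 members (43.1%) and of 9.93% of the 27025 genes with a window. CTTTCC, a pyrimidine run like that of a TOP start, stood in 30 of 58 members (51.7%) against 29.3% of all genes, and on the sense strand within the last 60 bases in 14 of 58 (24.1%) against 3.04%. AAGATGG, a core of the YY1 motif, stood in 9 of 58 (15.5%) against 7.28%, and the E-box CACGTG, the letters bound by the clock activators, in 6 of 58 (10.3%) against 8.09%. CCGGAAG and AAGATGG can overlap in their shared AAG, which occurred in 0 members. Rps18 and Rps6 above carry CCGGAAG, Rplp2 carries it on the other strand (printed as CTTCCGG), Rps19 and Rpl22 carry CTTTCC, and the printed stretches of Rpl36a and Rpl7l1 hold none of the 4 motifs. Their whole windows, which are longer, do hold some and are counted above. The Rpl36a window holds CTTTCC on the sense strand within the last 60 bases, and the Rpl7l1 window holds AAGATGG and CTTTCC. These matches describe letters and no binding was measured.

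The ribosomal protein genes were among the brightest on the array. Their median mean log2 signal was 11.09 against 6.31 over all tested genes, and 61 of 70 exceeded the 95th percentile. The brightest were Rps6 (12.19), the small-subunit protein phosphorylated by S6 kinase, Rps2 (12.16), Rpsa (11.84) and Rpl35a (11.84). The dimmest tested were Rpl14 (5.38), Rps15a (5.73), Rps19bp1 (6.54) and Rpl22l1 (7.41). Signals of different probe sets depend on the probes, so this order is no order of RNA amounts, and brighter probe sets of Rpl14 carry a second symbol and were left out. Probe sets of the types a_at (34), x_at (18) and s_at (6), which can bind several transcripts, read 58 of the 72 genes. The members also moved together between arrays. After the fitted arm and time effects were removed, the correlation over all arrays had a median of 0.47 among 2415 pairs of members and of 0.003 among pairs of all genes. Rplp1 (mean correlation with the other members 0.60), Rplp2 (0.59) and Rpl27a (0.57) followed the set most closely, and Rps15a (-0.04), Rpl4 (-0.02), Rps19bp1 (0.11) and Rpl8 (0.12) least. All points of a correlation share their arrays and their normalization.

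Some facts bear on all results. Arrays of a group correlated at 0.940 to 0.983, and no 2 were identical. All 15 muscle stem cell markers, among them Pax7 (mean log2 signal 9.84, the 98th percentile of probe sets), passed the filter, and 0 of 15 were called with diet at either age. In aged mice 5 of 15 had an unadjusted p under 0.05 for diet, with a median difference of 0.12, and their mean log2 signal was 9.54 on the control diet (9.27 to 9.97) and 9.61 under CR (9.36 to 9.91). The lowest mean ribosomal protein signal of any array was 10.36, in aged control replicate 4 at 12 h. In bulk RNA, a change in the share of cells of a type cannot be told apart from a change in RNA per cell.

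**Figure D1:**
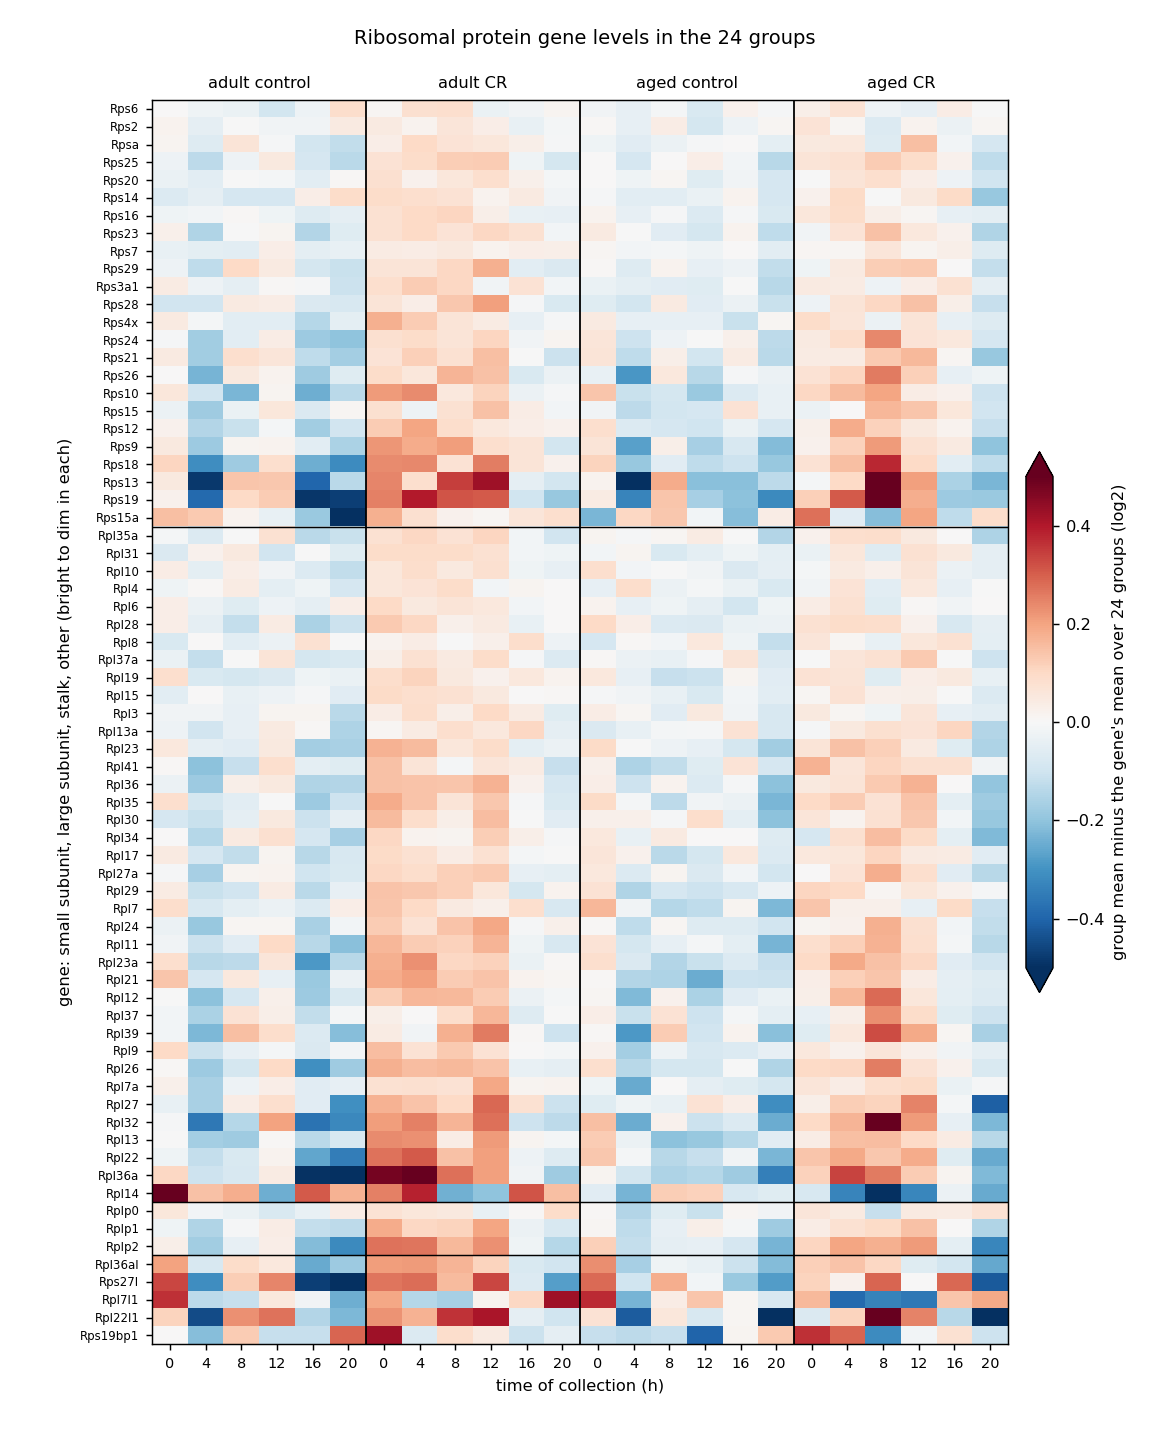
Mean log2 signal of each of the 70 tested genes (rows, by subunit and from bright to dim) in the 24 groups (columns, by arm and time of collection in h), as the difference from that gene's mean over the groups. Red cells gather in both CR arms from 0 to 12 h, and most genes return to pale or blue at 20 h; the colour scale ends at 0.5 on either side.

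Calorie restriction in adult mice went with higher levels of ribosomal protein RNAs. The day mean, the level averaged over the fitted 24 h cycle, was called higher under CR for 18 of 70 members (25.7%) and lower for 0, in limma at an adjusted p under 0.05 over all 11853 genes. Over all tested genes 1.05% were called, 0.548% higher and 0.498% lower. The difference was positive for 69 of 70 members, all but the dim Rpl14, with a median of 0.10 log2 units against 0.01 over all genes. The 18 comprised 7 of 24 small-subunit genes (Rps4x, Rps10, Rps12, Rps18, Rps19, Rps23, Rps24), 10 of 38 large-subunit genes (Rpl11, Rpl12, Rpl13, Rpl21, Rpl22, Rpl23a, Rpl24, Rpl26, Rpl36, Rpl36a) and 1 of 3 stalk genes (Rplp2). Called differences ran from 0.11 (Rps4x, 7.58% higher) to 0.37 (Rpl36a, 29.4% higher).

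Rpl36a, a large-subunit protein near the site where transfer RNA leaves the ribosome, changed most. Its log2 signal had a lowest, median and highest value of 8.57, 9.31 and 9.82 over the 22 adult control arrays and of 9.0, 9.64 and 10.31 over the 32 adult CR arrays. The ranges overlapped, and the day mean was 0.37 ± 0.07 (SE) higher under CR (limma adjusted p = 0.00146). At 4 h the arms did not overlap: the 5 control arrays read 9.08, 9.14, 9.21, 9.54 and 9.64, and the 6 CR arrays from 9.65 to 10.31. At 16 h the 4 control arrays read 8.57, 8.86, 9.02 and 9.29, and all 5 CR arrays lay higher, at 9.33, 9.36, 9.42, 9.45 and 9.50. The lone control array at 20 h (8.92) also lay below the CR arrays, and at 0, 8 and 12 h the arms overlapped. This call held in each of 92 fits that left out 1 array and in 19 of 21 other settings, and was lost without all 4 h arrays (0.31, limma adjusted p = 0.0738) and without all 16 h arrays (0.24, limma adjusted p = 0.268).

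Rps19, a small-subunit protein needed to mature the 18S ribosomal RNA and mutated in Diamond-Blackfan anaemia, read 7.93, 8.82 and 9.56 (lowest, median, highest) in adult control and 8.53, 9.06 and 9.95 in adult CR. The difference of 0.35 ± 0.09 was called (limma adjusted p = 0.0389), but the call was lost in 10 of 92 omissions of an array (limma adjusted p up to 0.0812), without all arrays of 4, 12, 16 or 20 h, and with the lymphocyte score described below as a covariate. Rps18, a protein of the small-subunit head, read 9.55, 10.02 and 10.43 in control and 9.88, 10.32 and 10.74 in CR, a difference of 0.27 ± 0.06 (limma adjusted p = 0.00921) that no omission of 1 array removed. Rpl22, a large-subunit protein dispensable for general translation, read 9.09, 9.63 and 9.89 against 9.42, 9.89 and 10.16, a difference of 0.26 ± 0.05 (limma adjusted p = 0.00401). The medians of all 3 genes lay higher in CR while the ranges overlapped. A second, dimmer Rpl22 probe set had a difference of 0.01 ± 0.08, and the Rpl22 call was lost when the gene's probe sets were averaged. Rplp2, of the stalk, rose by 0.23 ± 0.06 (limma adjusted p = 0.0269), and the other stalk genes had differences of 0.15 (Rplp1, limma adjusted p = 0.055) and 0.05 (Rplp0, limma adjusted p = 0.362). Rpl13 rose by 0.21 ± 0.05 (limma adjusted p = 0.0248). The Rplp2 and Rpl13 calls were each lost in 3 omissions of an array and with the lymphocyte score, and that of Rpl13 also with averaged probe sets, separate fits and the fibroadipogenic score. The brightest gene, Rps6, read 12.02, 12.14 and 12.33 in control and 12.09, 12.20 and 12.36 in CR, and was not called.

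The adult calls depended on 2 of the 6 times. Leaving out all arrays of 1 time, tried after seeing the data except for 20 h, gave 0 members without 4 h, 0 without 16 h, 9 without 12 h, 23 without 0 h, 19 without 8 h and 20 without 20 h. The median difference stayed at 0.09 without 4 h and 0.08 without 16 h, and over all genes 41 and 19 were called there, against 124 with all times. Without 12 h, 45 of all genes were called. The count also leaned on single control arrays: it was 11 without replicate 3 at 0 h, 10, 7 and 11 without replicates 2, 3 and 4 at 16 h, 11 without the lone array at 20 h, 11 without replicate 5 at 4 h, and 33 without replicate 1 at 0 h. No omission of 1 array gave a member called lower. Markers of other cell types differed between diets too, some upward and some downward. Cd79a, a B-cell receptor component and the 1 of 5 lymphocyte markers above the filter, had a mean log2 signal of 7.22 (6.71 to 8.10) in adult mice on the control diet and 7.54 (7.06 to 8.15) under CR. In aged mice the means were 7.44 (6.92 to 8.09) and 7.75 (7.21 to 8.29). It was 0.29 higher under CR in adults, which was not called, and 0.30 higher in aged mice, which was called. The pan-leukocyte gene Ptprc (3.30) and the T-cell gene Cd3e (3.81) lay below the filter. With the Cd79a signal as a covariate, an alternative added once the data had been seen, 8 members were called higher and 0 lower in adults and 0 in aged mice, while the median differences were 0.11 and 0.07. The mean fibroadipogenic signal moved the other way at both ages. In adults 2 of 6 markers were called lower (Dpt and Gsn), the mean log2 signal was 9.13 in control (8.90 to 9.47) and 9.0 in CR (8.60 to 9.23), and 14 members were called with that score as a covariate. In aged mice the means were 9.10 (8.79 to 9.39) and 8.98 (8.75 to 9.19). The mean signal of Schwann cell markers was also lower under CR. It was 8.69 (7.78 to 9.19) and 8.63 (7.96 to 9.11) in adults, and 9.07 (8.27 to 9.81) and 8.91 (8.32 to 9.31) in aged mice. The 4 tested pericyte and smooth muscle genes had 3 positive differences at each age, with medians of 0.16 and 0.23, and 0 were called. At an unadjusted p under 0.05 stood 3 (adult) and 4 (aged), and in aged mice the gene that was lower under CR was among them. Their mean signal was 10.24 (9.65 to 10.81) and 10.26 (9.05 to 10.79) in adults and 10.44 (9.83 to 10.97) and 10.53 (10.11 to 10.97) in aged mice. All 4 tenocyte markers were higher in adults (median 0.18, 0 called), with a mean signal of 6.41 (5.41 to 7.75) and 6.53 (5.40 to 8.06). Of 3 macrophage markers, Cd68 was called higher in aged mice. The part of these cells in the result was not tested.

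**Figure D2:**
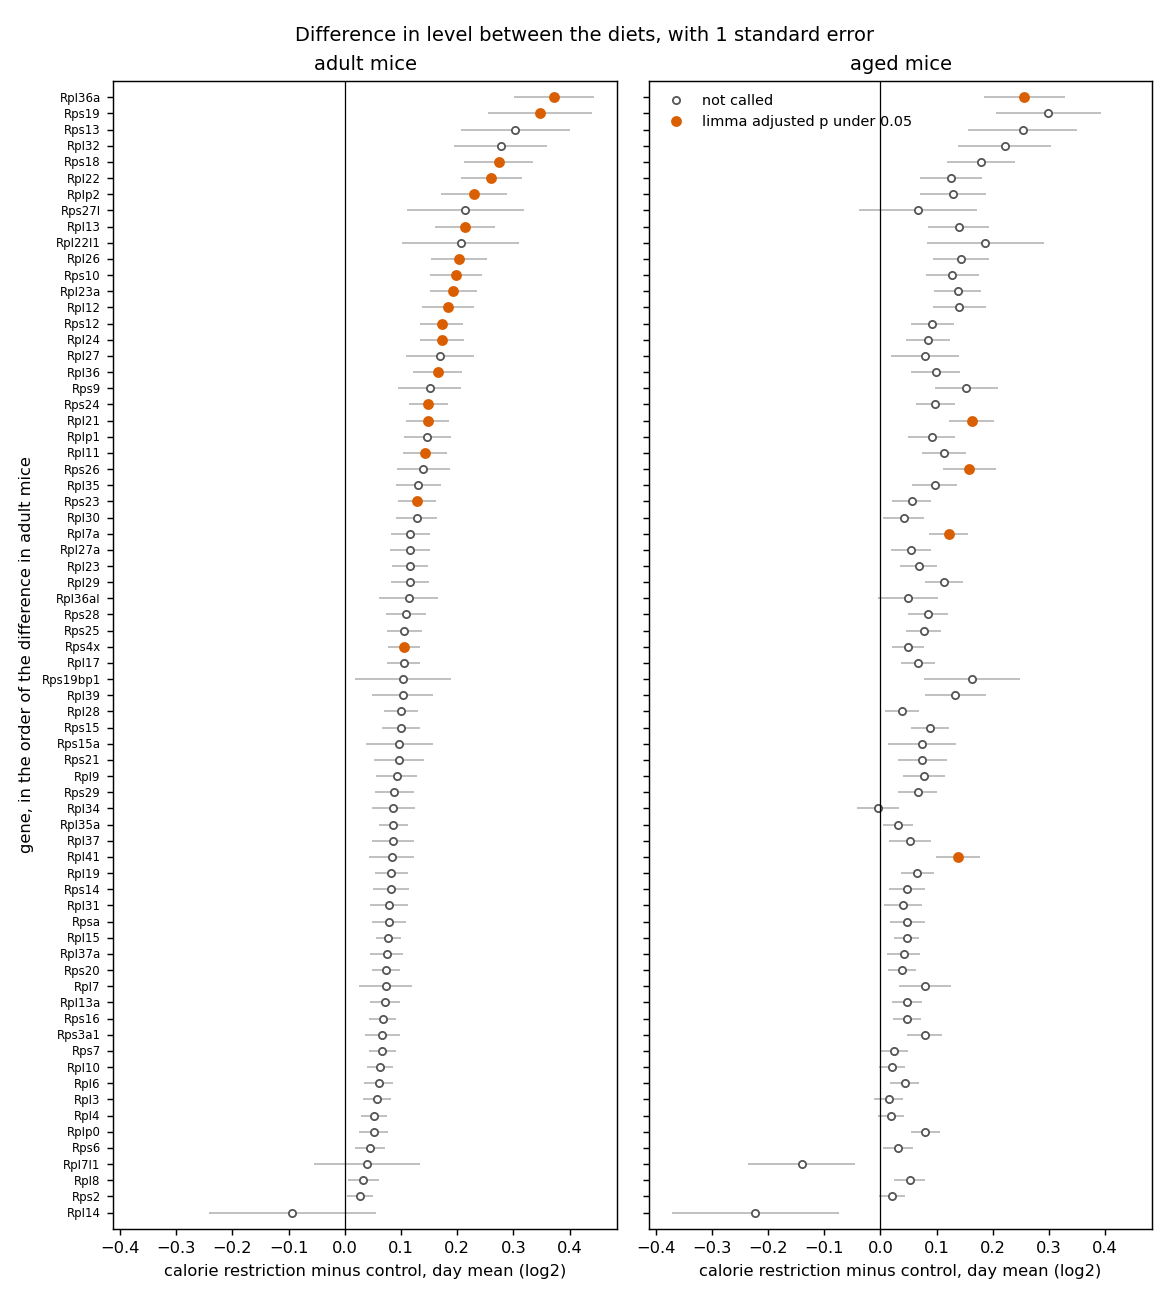
Difference in day mean between CR and control diet (log2, horizontal) for each of the 70 genes (vertical, in the order of the adult difference) in adult and aged mice; points are limma estimates, bars 1 standard error, and filled points calls at adjusted p under 0.05. 69 of 70 points lie right of 0 in adult mice, with 18 filled, and 67 of 70 in aged mice, with 5 filled.

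In aged mice the same genes leaned upward under CR, with fewer calls. The day mean was called higher for 5 of 70 members (7.14%) and lower for 0, where 2.29% of all genes were called, 1.21% higher and 1.09% lower. The difference was positive for 67 of 70, with a median of 0.08 against -0.0016 over all genes. The exceptions were Rpl14, Rpl34 and Rpl7l1. The called genes were Rpl36a (0.26 ± 0.07, limma adjusted p = 0.0326), Rpl21 (0.16 ± 0.04, limma adjusted p = 0.0108), Rps26 (0.16 ± 0.05, limma adjusted p = 0.048), Rpl41 (0.14 ± 0.04, limma adjusted p = 0.0376) and Rpl7a (0.12 ± 0.04, limma adjusted p = 0.0383). Rpl21, a large-subunit protein, read 10.03, 10.68 and 10.92 (lowest, median, highest) in aged control and 10.60, 10.79 and 11.02 in aged CR. The 26 CR arrays began near the middle of the control range, and the call held in all 92 omissions of an array but not without the arrays of 4, 12 or 20 h. Rps26, at the messenger exit channel of the small subunit, read 10.17, 10.86 and 11.03 against 10.71, 10.97 and 11.30, and its call was lost in 39 omissions. Rpl36a read 8.62, 9.29 and 9.72 against 8.99, 9.51 and 9.95, lost in 7 omissions. Rpl41, the shortest ribosomal protein, and Rpl7a were lost in 13 and 15. The calls of Rps26, Rpl36a, Rpl41 and Rpl7a were each also lost without all 16 h arrays. They were lost too with the 3′ minus 5′ difference described below, the Schwann score or the lymphocyte score as a covariate. Separate fits and array weights each removed the calls of Rps26, Rpl41 and Rpl7a, and the lymphocyte score also removed that of Rpl21.

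These 5 calls were fragile as a count. All 5 were lost without the arrays of 4, 12 or 20 h (median differences of 0.07, 0.07 and 0.08). The count was 2 without 0 h, 1 without 16 h and 5 without 8 h, and single omissions gave 1 to 8. The 5 members called without 8 h were not the same 5, as Rpl36a and Rpl41 were lost there. Over all genes 197, 62 and 145 were called without 4, 12 and 20 h, against 272 with all times. The count was 1 without aged control replicate 4 at 12 h, replicate 4 at 20 h or replicate 1 at 4 h.

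The ages were alike in direction and were not shown to differ in size. Rpl36a and Rpl21 were called at both, 11.1% of the adult and 40% of the aged calls. Across the 70 members, which are not independent, the adult and aged differences, from separate arrays, had a Spearman correlation of 0.79. Both differences also followed the mean level of the members, with Spearman correlations of -0.63 (adult) and -0.61 (aged). The part of this shared order in the 0.79 was not tested. The adult difference was the larger for 59 of 70. The test of the difference between the ages called 0 of 70 members and 0 of 11853 genes in limma, with 0 members and 908 genes at an unadjusted p under 0.05. The median interaction (aged minus adult difference) was -0.04, where the median SE of a member was 0.05, and the smallest adjusted p was 0.705, for Rpl22 (-0.13 ± 0.08).

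On the log2 scale the brightest members differed least between diets. The median adult difference was 0.18 among the 24 dimmest members (mean log2 signal 5.38 to 10.77), 0.12 among the 23 in the middle and 0.07 among the 23 brightest (11.45 to 12.19). In aged mice the medians were 0.13, 0.09 and 0.04. The spread between arrays followed the same order, with a Spearman correlation of -0.90 between residual SD and mean level over the 70 members. Whether bright probe sets neared the top of the signal range was not tested.

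**Figure D3:**
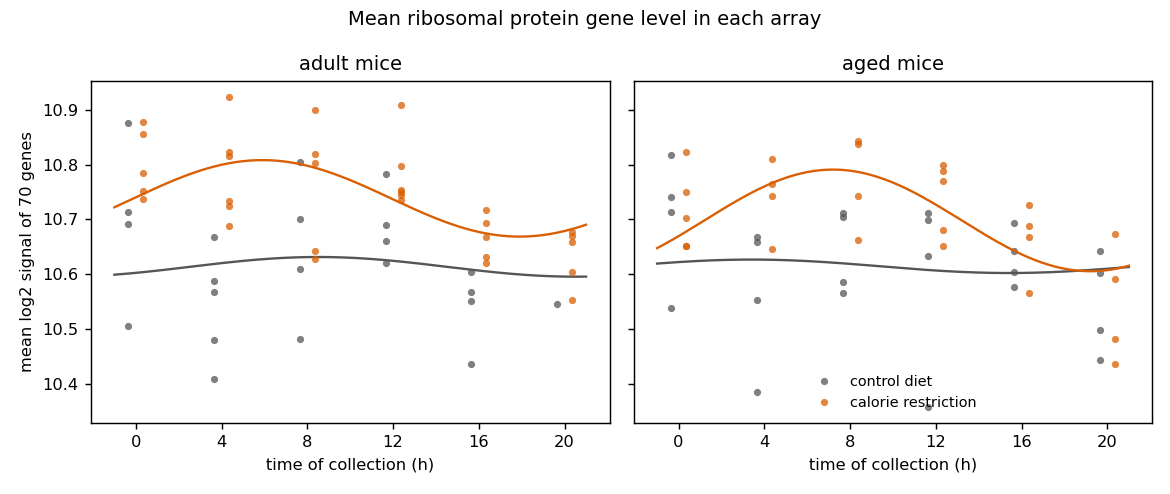
Mean log2 signal of the 70 genes in each array (points) against time of collection (h) for adult and aged mice on the control diet (grey) and under CR (orange), with the fitted 24 h cosine of each arm (lines). CR arrays lie above control arrays from 4 to 12 h at both ages, with overlap, and the aged arms meet at 20 h.

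Over the day, the level was lowest at 20 h in both CR arms and in aged control. The mean log2 signal of the 70 genes in aged CR was 10.72 ± 0.07 (SD, n = 5) at 0 h, 10.74 ± 0.07 (n = 4) at 4 h, 10.77 ± 0.09 (n = 4) at 8 h, 10.74 ± 0.07 (n = 5) at 12 h, 10.66 ± 0.07 (n = 4) at 16 h and 10.55 ± 0.11 (n = 4) at 20 h. At 20 h the 4 aged CR arrays read 10.44, 10.48, 10.59 and 10.67 and the 4 aged control arrays 10.44, 10.5, 10.60 and 10.64, which overlapped. At 8 h the aged CR arrays read 10.66, 10.74, 10.84 and 10.84, against 10.57, 10.59, 10.70 and 10.71 in aged control. In adult CR the mean was 10.80 ± 0.06 (n = 5) at 0 h, 10.78 ± 0.09 (n = 6) at 4 h and 10.63 ± 0.05 (n = 5) at 20 h, and the lone adult control array at 20 h read 10.54. The control arms also differed between times. Aged control was highest at 0 h (10.70 ± 0.12, n = 4) and lowest at 20 h (10.55 ± 0.09, n = 4). Adult control was 10.70 ± 0.15 (n = 4) at 0 h, 10.54 ± 0.10 (n = 5) at 4 h, 10.69 ± 0.07 (n = 4) at 12 h and 10.54 ± 0.07 (n = 4) at 16 h. The fitted amplitude, the distance from day mean to peak, under CR was 0.07 in adults and 0.09 in aged mice. On the control diet it was 0.02 and 0.01, although the control group means differed between times as given above. The number of members higher under CR in aged mice was 39 of 70 at 0 h, 65 at 4 h, 59 at 8 h, 67 at 12 h, 50 at 16 h and 37 at 20 h. In adult mice it was 67, 68, 65, 66, 68 and 58. The share of all genes higher under CR moved with time too. In aged mice it lay between 42.7% at 0 h and 53.9% at 12 h, with 47.9% at 20 h. In adults it lay between 49.1% at 20 h, against the lone control array, and 55.9% at 4 h. The members moved together between arrays, so these counts are not of independent genes.

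With each gene read by its brightest probe set, daily rhythms of ribosomal protein genes were called under CR and in neither control arm. In a fit of 27093 probe sets, 57 other probe sets of these genes gave 6 calls in adult control and 3 in aged control. They gave 11 calls in adult CR and 14 in aged CR. The 70 chosen probe sets gave 0 and 0 on the control diet in that fit, and 15 and 27 under CR. The counts below are of the chosen probe sets. In adult control, 0 of 70 members were called rhythmic by limma's F test of a 24 h cosine and sine, with 1 member at an unadjusted p under 0.05, where 10.6% of all genes were called. In aged control, 0 of 70 were called, again with 1 at an unadjusted p under 0.05, against 10.8% of all genes. In adult CR, 16 of 70 were called (22.9%), a share near the 22.4% of all genes. In aged CR, 28 of 70 were called (40%) against 16.5% of all genes. The aged CR calls comprised 9 of 24 small-subunit genes, 15 of 38 large-subunit genes, 1 of 3 stalk genes (Rplp2) and 3 of the 5 relatives (Rpl22l1, Rpl36al, Rpl7l1). The adult CR calls comprised 6, 7, 1 (Rplp2) and 2 (Rpl36al and Rpl7l1). The cycles were shallow. The median amplitude over the 70 members was 0.05 in each control arm, 0.08 under CR in adults and 0.11 under CR in aged mice, against 0.13 to 0.14 over all genes.

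The called members peaked together. In adult CR, 15 of 16 peaked between 3.28 and 10.1 h, with a median of 5.42 h, and in aged CR, 27 of 28 between 5.00 and 10.0 h, with a median of 7.63 h. Rpl7l1 was the exception in both. Of all 70 members, called or not, 82.9% under CR in adults and 80.0% under CR in aged mice had a fitted peak from 4 to 12 h, against 31.7% and 36.3% of all genes. In the control arms the shares were 52.9% and 40% of members against 31.3% and 28.4%. A total of 12 members were called in both CR arms, 75% of the adult and 42.9% of the aged calls. Of these, 10 peaked later in aged CR, by a median of 0.63 h over the 12, and 11 had the larger amplitude there. The test of a rhythm difference between the CR arms called 0 of 70.

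**Figure D4:**
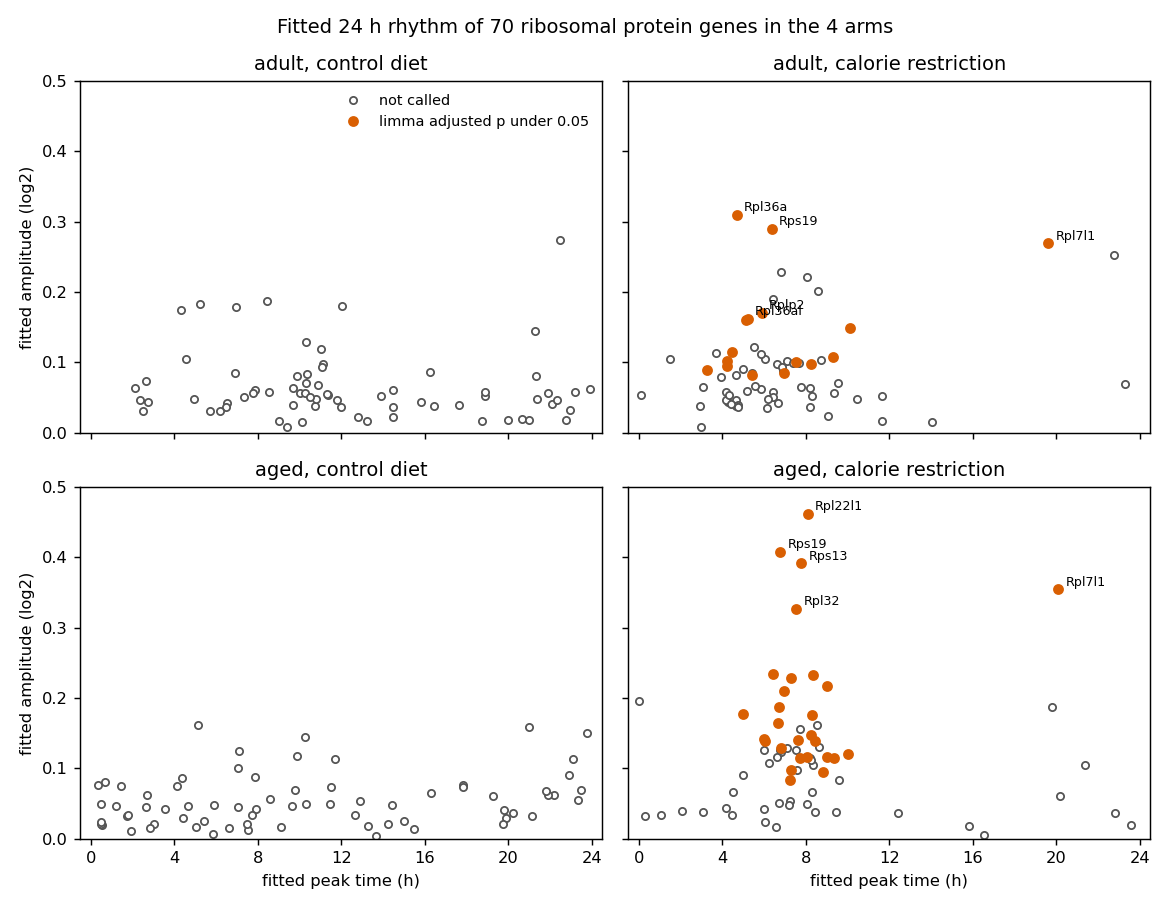
Fitted amplitude (log2) against fitted peak time (h) for the 70 genes in the 4 arms. Filled points are rhythmic at limma adjusted p under 0.05 and those of largest amplitude are named. Filled points number 0 in both control arms and 16 (adult) and 28 (aged) under CR, and all but Rpl7l1 lie before 12 h.

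Rpl36a had the largest called amplitude in adult CR, 0.31 ± 0.06 with a peak at 4.70 ± 0.78 h (limma adjusted p = 0.000607), a 1.54-fold rise from trough to peak. It read 9.65, 9.83, 9.88, 9.94, 10.19 and 10.31 at 4 h and 9.0, 9.19, 9.29, 9.35 and 9.43 at 20 h, so that the times did not overlap. This call held in all 92 omissions of an array, which did not include the adult CR arrays of 4 and 12 h. It also held in all 21 other settings, among them the omission of all 4 h arrays. In aged CR its amplitude was 0.23 ± 0.07 (limma adjusted p = 0.0459), and the call was lost in 12 omissions. That aged call was also lost with time as 6 levels, with array weights and without all arrays of 4, 8, 16 or 20 h. As covariates, the 3′ minus 5′ difference described below, the muscle stem cell score and the fibroadipogenic score each removed it too. Rps19 cycled in both CR arms, with an amplitude of 0.29 ± 0.08 and a peak at 6.36 ± 1.08 h in adults (limma adjusted p = 0.0223), and 0.41 ± 0.09 at 6.77 ± 0.83 h in aged mice (limma adjusted p = 0.00462). In aged CR it read 9.37, 9.53, 9.66 and 10.04 at 8 h and 8.47, 8.64, 8.85 and 9.04 at 20 h, again apart. Aged control arrays read 8.76, 9.0, 9.18 and 9.35 at 8 h, all below the CR arrays, and 8.49, 8.55, 8.56 and 8.85 at 20 h, among them. Rps19 kept its aged CR call in all 92 omissions of an array and in 20 of 21 other settings, all but the omission of the 8 h arrays (0.31, limma adjusted p = 0.13).

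Rps13, a small-subunit protein of the platform between the subunits, read 9.76, 9.92, 10.12 and 10.26 at 8 h in aged CR and 8.62, 9.04, 9.29 and 9.32 at 20 h. Its amplitude was 0.39 ± 0.10 with a peak at 7.79 ± 0.91 h (limma adjusted p = 0.00924), while its 2 dimmer probe sets gave 0.52 at 7.80 h, which was called, and 0.02, which was not. Rpl32, of the large subunit, read 10.52, 10.71, 10.83 and 11 at 8 h and 9.76, 9.93, 9.99 and 10.08 at 20 h, with an amplitude of 0.33 ± 0.08 at 7.55 ± 0.93 h (limma adjusted p = 0.0115). Both genes were higher at 8 h than at 20 h in each array of that arm. In aged control Rps13 read 9.18, 9.48, 9.57 and 9.69 at 8 h and 9.06, 9.11, 9.17 and 9.31 at 20 h. Smaller called cycles reached down to Rps20 (0.08 ± 0.03) in aged CR and Rps16 (0.08 ± 0.02) in adult CR.

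Among called members, the relatives of core proteins included the widest cycle in aged CR and the one inverted cycle. Fitted amplitudes were larger in dimmer members. In aged CR the median was 0.19 among the 24 dimmest and 0.05 among the 23 brightest, and in adult CR 0.14 and 0.05. Rpl22l1, Rpl7l1, Rpl36a, Rps19, Rps13 and Rpl32 were all among the 24 dimmest. Rpl22l1, the paralog that can take the place of Rpl22, had the largest called amplitude in aged CR, 0.46 ± 0.10 at 8.09 ± 0.83 h (limma adjusted p = 0.00336), a 1.90-fold rise from trough to peak. It read 7.80, 7.91, 7.98 and 8.07 at 8 h and 6.57, 6.60, 6.71 and 7.42 at 20 h. Rpl22 itself peaked at 6.73 ± 1.05 h in aged CR with 0.19 ± 0.06 (limma adjusted p = 0.0333), so both paralogs peaked in the same part of the day. Rpl36al, an intronless relative of Rpl36a, cycled in adult CR (0.16 ± 0.05, peak 5.22 ± 1.10 h, limma adjusted p = 0.0234) and aged CR (0.18 ± 0.05, peak 5.00 ± 1.09 h, limma adjusted p = 0.0399). Rpl7l1, a relative of Rpl7 found in pre-ribosomes, peaked at 19.6 ± 1.17 h in adult CR (0.27 ± 0.09, limma adjusted p = 0.043, lost in 13 omissions) and 20.1 ± 0.99 h in aged CR (0.35 ± 0.10, limma adjusted p = 0.0163). In aged CR it read 6.97, 7.10, 7.13 and 7.14 at 8 h and 7.26, 7.52, 7.73 and 7.91 at 20 h, the reverse of Rps13, Rpl32 and Rpl22l1 above. Its 2 dimmer probe sets were not called in aged CR and peaked there at 23.8 and 2.37 h, and 1 of them was called in adult CR with a peak at 4.30 h. With its probe sets averaged Rpl7l1 was called in neither CR arm, its aged call was also lost without the 0 h arrays, and its adult call with time as 6 levels, array weights, the 3′ minus 5′ covariate or any time but 12 h left out. Rps27l, a p53-responsive relative of Rps27, and Rps19bp1 were called in no arm.

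**Figure D5:**
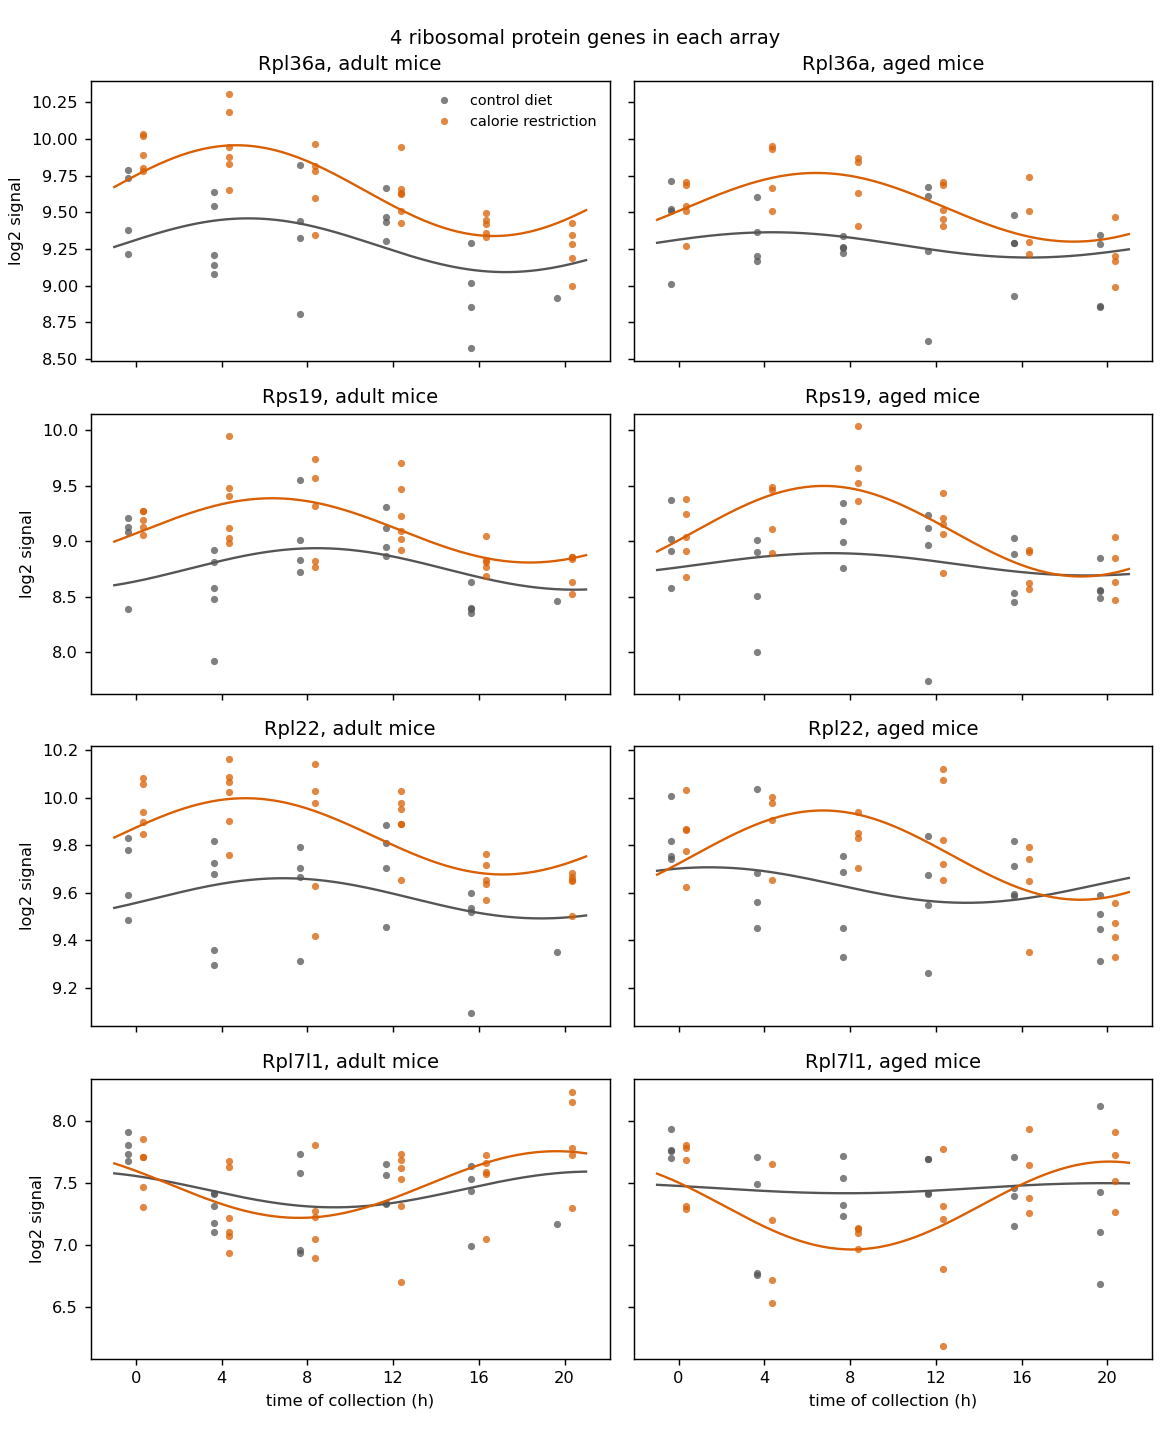
Log2 signal in each array (points) against time of collection (h) for Rpl36a, Rps19, Rpl22 and Rpl7l1 in adult (left) and aged mice (right), control diet in grey and CR in orange, with the fitted 24 h cosine (lines). The orange curves of the first 3 genes are high around 4 to 8 h, and that of Rpl7l1 is low there.

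The cycle counts depended on the times included. Without the 20 h arrays 2 members were called in each CR arm, while the number of all genes called went from 2650 to 2003 and from 1951 to 1458. The aged CR calls of Rps13, Rpl32 and Rpl22l1 were lost without the 20 h arrays and without the 8 h arrays. The adult CR count was 1 without 16 h and 9 without 4 h, and 13 to 19 without 0, 8 or 12 h. Over all genes 1765, 2332 and 1836 to 2347 were called there, against 2650 with all times. The aged CR count was 9 without 8 h and 17 without 16 h, and 21 to 30 without 0, 4 or 12 h. Over all genes these omissions left 1377, 1409 and 1408 to 1909 called, against 1951. In adult control 3 members were called without 0 h and 2 without 4 h, and in aged control 1 without 0 h. All genes called numbered 1047 and 1378 in those adult fits, against 1256, and 930 in the aged fit, against 1276. Single arrays mattered too. The adult CR count was 10 without replicate 1 at 16 h and 9 without replicate 4 at 20 h, and the aged CR count was 17 and 11 without replicates 2 and 4 at 20 h, 18 without replicate 4 at 4 h, and 18 and 17 without replicates 1 and 3 at 8 h. The 3′ minus 5′ difference of the Gapdh and Actb control probes, a measure of RNA integrity and amplification, had a fitted cycle in all 4 arms, with amplitudes of 0.05 to 0.07 and peaks at 0.98 h (adult) and 2.13 h (aged) on the control diet and 23.0 h and 22.3 h under CR. With it as a covariate 12 and 10 members were called under CR. The aged CR calls of Rps13, Rpl32 and Rpl36a were lost with this covariate, and those of Rps19 and Rpl22l1 were kept. Cell type scores cycled too. The muscle stem cell score had amplitudes of 0.14 and 0.17 with peaks at 0.49 and 0.21 h on the control diet, and of 0.10 and 0.13 with peaks at 1.70 and 21.1 h under CR. In aged CR it was 9.41 at 8 h and 9.73 at 20 h, the reverse of the ribosomal protein genes. The Schwann score had amplitudes of 0.39 and 0.28 on the control diet and 0.34 and 0.25 under CR, with peaks from 11.8 to 13 h. The tenocyte score had its largest amplitudes in adults, 0.50 at 9.68 h on the control diet and 0.49 at 7.15 h under CR. The part of RNA quality and of these cells in the cycles was not tested.

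The rhythms were not shown to differ between diets. The test of a rhythm difference called 0 of 70 members between CR and control in adults (3 of all genes, 0.0253%), with 0 members at an unadjusted p under 0.05. It also called 0 of 70 in aged mice (46 of all genes, 0.388%), with 16 members (22.9%) against 13.8% of all genes at an unadjusted p under 0.05. The smallest adjusted p was 0.836 in adults (Rpl29) and 0.143 in aged mice (Rps15, amplitude 0.12 at 10.0 h under CR and 0.07 at 17.8 h on control diet). Between the ages it called 0 of 70 on the control diet (0% of all genes) and 0 under CR (0.00844%), with 0 and 1 members at an unadjusted p under 0.05. The smallest adjusted p was 0.999 and 0.319 (Rpl34). Calls in CR and none in control thus do not by themselves show a difference.

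No member was called between the ages, with the doubt over the adult control age tag given above. In aged against adult control mice 0 of 70 were called in limma (0.422% of all genes, 0.329% higher and 0.0928% lower), with 1 member at an unadjusted p under 0.05, and the median difference of 0.01 changed sign to -0.02 when arrays were centred on their median. Under CR 0 of 70 were called (1.94% of all genes, 1.48% higher and 0.456% lower), with 2 at an unadjusted p under 0.05. There 7 of 70 were higher in aged mice, with a median of -0.03. The smallest adjusted p belonged to Rpl21 on the control diet (-0.09, limma adjusted p = 0.388) and to the dim Rpl14 under CR (-0.37, limma adjusted p = 0.157).

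Related gene groups are given side by side. Of 72 mitochondrial ribosomal protein genes, which build the separate ribosome of that organelle, 1 was higher in adult CR (Mrps35, 0.29 ± 0.07, limma adjusted p = 0.0187) and 0 in aged CR, with median differences of 0.04 at both ages. Of 49 genes named as initiation or elongation factors or their partners (Eif and Eef), 0 were called with diet, with medians of 0.05 and 0.03. Of 61 ribosome biogenesis genes, 0 were called with diet, with medians of 0.05 and 0.03. Of 24 other genes with TOP messengers, 2 were higher in adult CR, the small-subunit fusion gene Fau (0.17 ± 0.04, limma adjusted p = 0.0309) and the small nucleolar RNA host Snhg8 (0.24 ± 0.05, limma adjusted p = 0.0045), and 1 in aged CR, Snhg8 (0.20 ± 0.05, limma adjusted p = 0.0134). Their medians were 0.10 and 0.06, close to the 0.10 and 0.08 of the ribosomal protein genes. Rhythms under CR were called in aged mice, beside 40% of the ribosomal protein genes and 16.5% of all genes, for 13 of 72 mitochondrial ribosomal protein genes (18.1%), 3 of 49 translation factors (6.12%), 8 of 61 biogenesis genes (13.1%) and 2 of 24 TOP genes (8.33%), among them Fau, which peaked at 7.62 ± 0.96 h. In adults, beside 22.9% of the ribosomal protein genes and 22.4% of all genes, the shares were 12.5%, 22.4%, 23.0% and 16.7%. In the control arms, where 0 ribosomal protein genes were called, these groups had 5, 5, 5 and 1 calls in adults and 8, 5, 4 and 2 in aged mice. These groups were not tested against the ribosomal protein genes.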

How the data were processed

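RNA (25 ng, TRIzol) was amplified with WTA2 for 17 cycles, and 8 µg of fragmented cDNA was hybridised to Affymetrix perfect-match mouse arrays, per the labels' protocols. The deposited values are log2 signals per probe set made by the authors with RMA, per the submitters' processing notes. The log base was inferred from the value range (1.19 to 12.8). Of 45141 probe sets, 28898 carried 1 symbol in the platform annotation, 551 several and 15692 none listed. The brightest probe set stood for each gene, and genes below the 40th percentile of probe set means were left out. limma 3.58.1 in R 4.3.3 fitted all arrays with a day mean, cosine and sine of 24 h per arm, with Benjamini-Hochberg adjustment over all genes and calls at adjusted p under 0.05. The script was tested on simulated data. Members and lists were chosen with earlier results of these data known. Named members were the 4 brightest and dimmest, up to 6 called genes per test of largest size (where none was called, those of smallest p), and the non-core members; from other lists, up to 3 called genes per test of smallest p. Other members named as extremes were chosen after their values were seen. Alternatives covered the filter, probe set choice, normalization, time model, separate fits, array weights, 3′ minus 5′ difference, omission of single arrays and, added after seeing the data, 5 cell type scores and the omission of each time other than 20 h. Single arrays were left out of groups of up to 5 arrays, which spared the 12 adult CR arrays of 4 and 12 h. Replicate numbers did not pair arrays: same-number arrays had median correlations of -0.006 to 0.05. Array number limits the precision. Figures used matplotlib 3.10.9.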

Additional observations from a re-analysis of the deposited data

Results flagged for a closer look

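In 20 of 299 sets of a measure and a group of 4 to 6 arrays, the highest or lowest array stood apart from the nearest other array by more of the group's range than Dixon's 95% limit allows, where chance gives about 1 in 20. All values are log2 signals. Aged control replicate 4 at 12 h was the lowest for Rps26 (10.17), Rps13 (8.03, the next array at 9.38) and Rpl32 (9.04, the next at 10.31), and had the lowest mean of all ribosomal protein genes. Adult control replicate 3 at 0 h was the lowest for Rps19 (8.39) and Rps18 (9.88), and aged control replicate 3 at 0 h for Rps18 (10.06) and Rps26 (10.70). Aged CR replicate 4 at 0 h was the lowest for Rps18 (9.97) and Rpl32 (9.78). Single low arrays were found for Rps18 in aged control at 16 h (replicate 4, 9.89), for Rpl22 in adult CR at 12 h (replicate 6, 9.65) and 20 h (replicate 4, 9.50) and in adult control at 16 h (replicate 3, 9.09), for Rpl21 in aged CR at 16 h (replicate 3, 10.60), for Rps13 in adult CR at 20 h (replicate 3, 8.84) and for Rpl7l1 in adult CR at 16 h (replicate 3, 7.05). High arrays were found for the mean ribosomal protein signal in adult CR at 12 h (replicate 1, 10.91), for Rps19 in adult control at 16 h (replicate 4, 8.63), for Rpl32 in adult control at 8 h (replicate 4, 10.65) and for Rpl22l1 in aged CR at 20 h (replicate 3, 7.42).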

How the results depend on the processing

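No count of called members reversed, and 0 members were called for age, for the diet by age interaction or for a rhythm difference under all of them. For adult CR against control (18), 13 to 23 members were called under most settings, 30 with array weights and 8 with the lymphocyte score. For aged CR against control (5), 8 were called with probe sets averaged per gene, with centred arrays and with time as 6 levels, 3 with added quantile normalization and with the muscle stem cell score, 2 with separate fits and with array weights, 1 with the 3′ minus 5′ difference and with the Schwann score, and 0 without the 20 h arrays and with the lymphocyte score. Rhythmic members in adult CR (16) numbered 10 with quantile normalization and 2 without the 20 h arrays. In aged CR (28) they numbered 16 with separate fits, 10 with the 3′ minus 5′ difference and 2 without the 20 h arrays. In adult control (0) they numbered 2 with the mean of probe sets and 5 with time as 6 levels, and in aged control (0) 2, 1 and 1 with the mean of probe sets, time as 6 levels and without the 20 h arrays. Leaving out all arrays of another time, tried after seeing the data, gave for 0, 4, 12 and 16 h 2, 0, 0 and 1 in the aged diet comparison; 0 for 4 h, 9 for 12 h and 0 for 16 h in the adult one; 9 (4 h) and 1 (16 h) rhythmic in adult CR, 9 (8 h) and 17 (16 h) in aged CR, 3 (0 h) and 2 (4 h) in adult control and 1 (0 h) in aged control. Without 16 h the uncalled age difference of Rps24 on the control diet turned to -0.0095. Leaving out 1 array at a time, 92 in all, which did not include the 12 arrays of the 2 groups of 6 (adult CR at 4 and 12 h), gave 7 to 33, 1 to 8, 9 to 16 and 11 to 33 for these 4 nonzero counts and 0 to 0 for the others. The aged level count fell to 1, 2 or 3 in 17 omissions: to 1 without aged control replicates 4 (12 h), 4 (20 h) and 1 (4 h); to 2 without aged control replicates 2 (16 h) and 1 (20 h) and aged CR replicates 1 and 3 (0 h) and 2, 4 and 5 (12 h); and to 3 without aged control replicates 3 (0 h), 4 (16 h), 3 (20 h), 2 (4 h) and 3 (8 h) and aged CR replicates 2 (0 h) and 3 (8 h). It was 8 without aged CR replicates 1 (12 h) or 2 (8 h) or aged control replicate 2 (0 h). With the time and replicate number as a replicate block (consensus correlation 0.04), 22 and 7 members were called for diet and 16 and 28 for the CR rhythms, and no count moved by over 1.5 times. Apart from the settings' own construction the causes were not tested. The single adult control array at 20 h and the 4 to 6 arrays of other groups limit precision.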
